A study of Enchytraeus crypticus with 9 samples.

Results

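A set of 115 array probes from cocoons of the potworm Enchytraeus crypticus stood higher than in unexposed cocoons after exposure to 5 mg Cd/kg soil and lower than in unexposed cocoons after exposure to 16 mg Cd/kg soil. They were chosen by their measured levels: every array at 5 mg Cd/kg had to lie above all 3 control arrays and every array at 16 mg Cd/kg below all 3. The 115 probes were 0.445% of 25869 probes that could meet this rule, on an array of 43750 probes. Only 5 probes (0.0193%) showed the opposite pattern, lower than every control at 5 mg and higher than every control at 16 mg. Because the measured levels chose both sets, their differences between groups are a description and carry no test.

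E. crypticus is a small white oligochaete worm of the soil that is used in toxicity testing, and its embryos grow inside cocoons laid into the soil. Whole cocoons aged 1 to 2 days after laying were kept for 1 day in LUFA 2.2 soil, a natural standard soil, that was un-spiked (control) or spiked with cadmium at 5 or 16 mg Cd/kg. Each group had 3 samples, each an extract of 300 pooled whole cocoons, so less RNA per cell and fewer cells of a type cannot be told apart in any value below. They are biological replicates by the study's design text. Total RNA of a sample was amplified, labelled with Cy3 and read on 1 Agilent array of its own, and precision is limited by having 3 arrays a group.

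Cadmium is a toxic metal with no known role in animal cells. It binds to thiol groups of proteins and of glutathione and competes with zinc and calcium for their binding sites. In many animals it induces metallothioneins, small metal-binding proteins, along with chaperones and enzymes of the defence against oxidants. A response that runs one way at a low dose and the other way at a higher dose is called non-monotonic and is known for many toxicants. The files do not pair the probe identifiers with gene names, so neither metallothionein nor any other gene of these pathways can be placed inside or outside the set, and identifiers are given for 6 probes.

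Levels are log2 processed signals from which the array's own 75th percentile was subtracted, so a level of 0 is the brightness of that percentile and a difference of 1 is a 2-fold change. The 75th percentile itself ran from 74.4 to 78.1 on the control arrays, from 38.3 to 84.9 at 5 mg Cd/kg and from 48.9 to 87.3 at 16 mg Cd/kg, so the arrays differed in brightness before scaling. The 9 arrays lay on 3 slides. Slides 1 and 2 each held all 3 groups, while slide 3 held only 5 mg array 1. That array, control array 1 and control array 2 were each scanned in a session of their own, so control array 3 was the only control that shared a session with cadmium arrays, and session and exposure can hardly be told apart. The median SD between arrays over all 25869 probes was 0.20 in controls, 0.69 at 5 mg and 0.38 at 16 mg Cd/kg. Over the 115 probes it was 0.17, 0.39 and 0.22.

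Under the reported scaling, the typical size of the shift was about 2-fold upward at the lower dose and less downward at the higher dose. Relative to the mean of the controls, the median of the 115 probes was 1.42, 1.05 and 0.86 for arrays 1 to 3 of the lower dose. For arrays 1 to 3 of the higher dose it was -0.61, -0.71 and -0.77, and for the controls -0.0024, 0.12 and -0.11. All 3 arrays of 5 mg thus stood above and all 3 of 16 mg below the controls, as the rule demands, and 5 mg array 1 stood farthest out. Array 1 was the highest of the 5 mg arrays for 75 of the 115 probes, array 2 for 36 and array 3 for 4, where the shares over all tested probes were 54.0%, 31.3% and 14.7%. Averaged over arrays, 5 mg minus control ran from 0.26 to 2.13 with a median of 1.11 (2.16-fold), beside a median of -0.25 over all tested probes. For 16 mg minus control the range was -2.29 to -0.11 with a median of -0.74 (1.67-fold lower than control), beside -0.07 over all tested probes. The doses differed by a median of -1.90 (16 mg minus 5 mg) over the 115 probes and 0.03 over all.

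**Figure D1:**
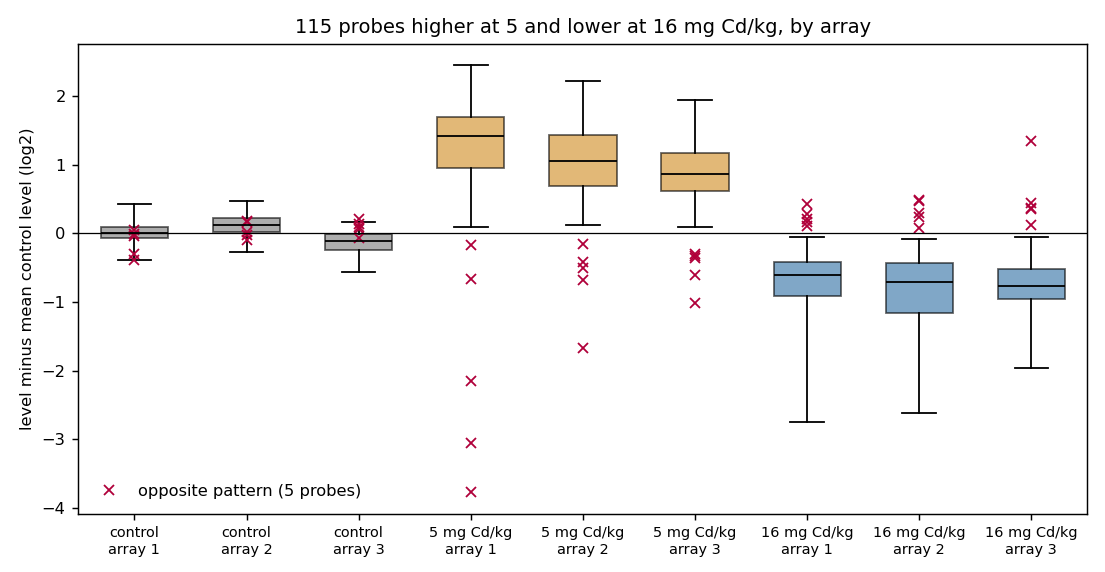
Levels of the 115 probes on each of the 9 arrays, minus the probe's mean control level (log2). Boxes span the quartiles with the median as a line, whiskers reach the lowest and highest probe, and crosses mark the 5 probes of the opposite pattern; all 5 mg boxes sit above 0, all 16 mg boxes sit below it, and the medians of the 5 mg arrays run from 0.86 to 1.42.

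For most of the 115 the upward shift was the larger one under the reported scaling. It exceeded the downward shift for 84 probes and was smaller for 31. Which shift was larger depended on the scaling. The medians of 5 mg and 16 mg minus control were 0.74 and -0.88 scaled on spike-in RNAs, and 0.64 and -0.85 unscaled. With the 75th percentile over probes above background on all 9 arrays they were 0.69 and -1.18. With each of the other scalings tried the upward median was the larger. A more than 2-fold difference from control was found for 76 probes at 5 mg, for 28 at 16 mg, and for 22 at both doses. Probe GYUW2K402FRGVE stood farthest above control at 5 mg Cd/kg: the controls read -2.37, -2.36 and -2.17, the 5 mg arrays -0.00037, -0.15 and -0.37, and the 16 mg arrays -2.60, -3.71 and -2.96. The 5 mg arrays were 4.37-fold above control on average (-0.17 ± 0.18 against -2.30 ± 0.11, SD, n = 3 each). With normexp background correction, in which a fitted background is taken from each spot, this difference was 0.44 or 0.34 in place of 2.13, depending on the scaling. Its 16 mg level of -3.09 ± 0.56 (SD, n = 3) was 1.73-fold below control, with the nearest 16 mg array only 0.24 under the lowest control.

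The next probe by this measure was GYUW2K401DQYVJ. Its controls read 0.02, 0.02 and -0.30, its 5 mg arrays 1.92, 2.12 and 1.17, and its 16 mg arrays -0.59, -0.63 and -0.90. The 3 groups did not overlap, and the means were 3.54-fold above control at 5 mg and 1.54-fold below it at 16 mg. With normexp correction 5 mg minus control was 0.88 or 1.12 in place of 1.82, depending on the scaling. For 16 mg minus control it was -0.16 or -0.30 in place of -0.62.

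The widest separation from control on both sides, by the nearest arrays, belonged to a pair of probes that also stood farthest below control at 16 mg Cd/kg. GYUW2K401EVF7M had levels of -0.56, -0.72 and -1.07 in controls, 0.94, 0.26 and 0.78 at 5 mg, and -3.53, -3.40 and -2.29 at 16 mg. GYUW2K402I59SC had -0.68, -0.79 and -1.07 in controls, 0.73, 0.16 and 0.83 at 5 mg, and -2.79, -2.97 and -2.81 at 16 mg. Both had nearly the same course, 2.72-fold and 2.68-fold above control at 5 mg and 4.88-fold and 4.03-fold below control at 16 mg Cd/kg. From 5 mg to 16 mg this was a 13.3-fold and a 10.8-fold lower signal, or -3.73 and -3.43 on the log2 scale. With normexp correction the same differences were -0.74 and -0.73 after quantile scaling and -1.25 and -1.26 after scaling on the 75th percentile, so their size depends on the treatment of background. Each of these 2 probes was well above background on only 2 of its 3 arrays at 16 mg Cd/kg. Whether the 2 probes read the same transcript is not given in the files.

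**Figure D2:**
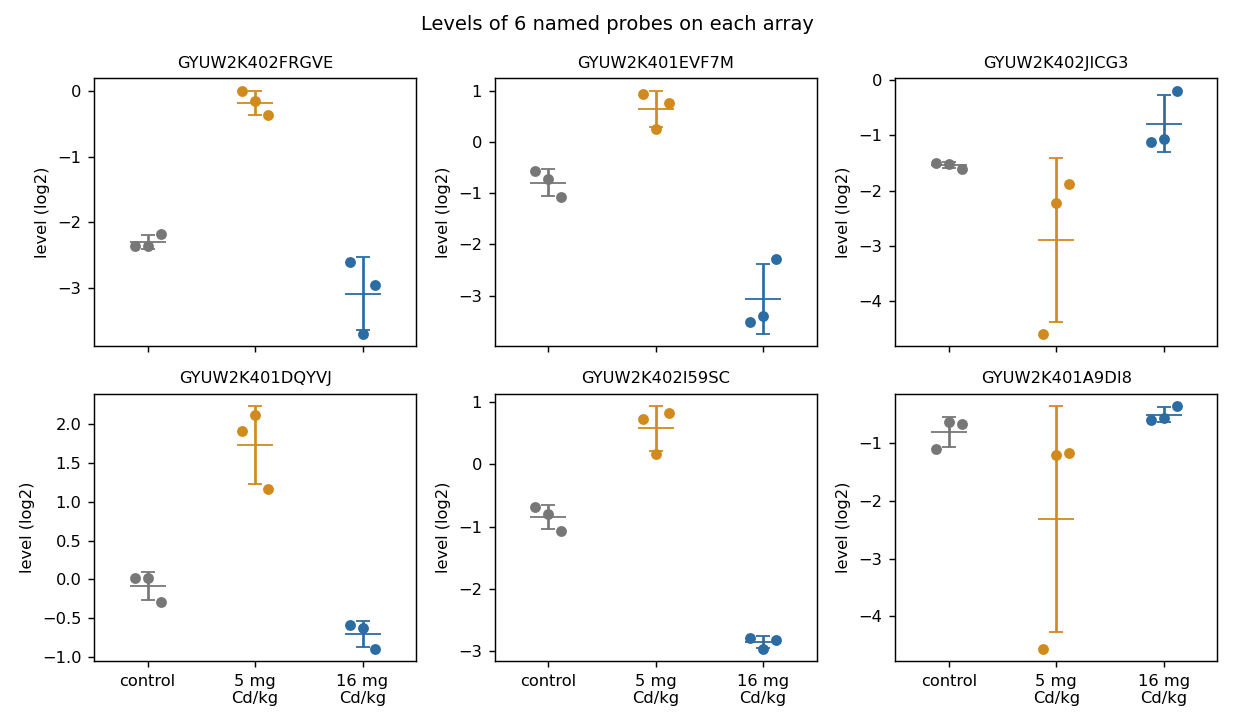
Levels (log2, minus the array's 75th percentile) of 6 probes on each array; points are arrays 1 to 3 from left to right, the wide bar is the mean and the error bar 1 SD (n = 3). The left and middle columns show probes of the 115, with 5 mg above and 16 mg below the controls, and the right column shows 2 of the opposite pattern, where the first 5 mg array lies far below the other 2.

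The brightest of the 115 in controls showed the pattern also in its unscaled signal. Its processed signal came to 1292, 1379 and 1155 in controls, to 1481, 1961 and 2464 for the lower dose and to 511, 811 and 971 for the higher. These 3 groups of signals did not overlap. On the scaled values it stood at 4.07 ± 0.13 in controls, 5.14 ± 0.24 at 5 mg and 3.40 ± 0.06 at 16 mg (SD, n = 3 each), which is 2.09-fold above and 1.59-fold below control. The dimmest of the 115 stood at -3.43 ± 0.13 in controls (SD, n = 3), and was above background on 1 array at 5 mg and on none at 16 mg. It was 1 of 4 probes that no 16 mg array measured above background. Their fold below control is a lower bound, for which each 16 mg array enters at the probe's level or at the lowest level that counted as well above background there, whichever is higher. The bounds ran from at least 1.07-fold to at least 2.00-fold lower.

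All 115 probes were well above background on every control array, as were 98.2% of the tested probes. On the 5 mg arrays 111, 113 and 115 of them were, where the shares of tested probes were 74.6%, 78.2% and 84.6%. On the 16 mg arrays it was 97, 111 and 109 (84.3%, 96.5% and 94.8%), where the shares of tested probes were 84.9%, 94.0% and 94.8%. At the higher dose the set was thus detected about as often as all tested probes. Detection at both doses rests on the signals that chose the set. In total 96 probes (83.5%) were above background on all 9 arrays, beside 65.4% of the tested probes.

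In controls the 115 spots were mostly of middle brightness among the tested probes. Brightness depends on the probe as well as on its transcript. When all tested probes were ranked by their mean control level and cut into 4 equal bins, 12 of the 115 fell in the dimmest bin, 42 and 46 in the bins between and 15 in the brightest. Ranked among probes detected on all 9 arrays alone, the 96 that were so detected fell 29, 30, 33 and 4 to a bin, from dim to bright. The median control level of the 115 was -0.34, beside -0.54 for all tested probes, and their highest was 4.07, beside 11.4. As a share of the summed signal of all probes on an array, which does not depend on the scaling, the 115 made up 0.0627%, 0.0708% and 0.0549% in controls. The 5 mg arrays gave 0.106%, 0.108% and 0.0886%, and the 16 mg arrays 0.0254%, 0.0261% and 0.0342%. The group means were 0.0628% ± 0.0080, 0.101% ± 0.011 and 0.0286% ± 0.0049 (SD, n = 3 each). These shares come from the same signals that chose the probes, so they are a description and carry no test.

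What the rule did not use was shared only loosely. Of the 115 probes, 68 (59.1%) were named as contigs, which are assembled sequences, and 47 had read-like names. Among the tested probes 53.4% were contigs. The median difference between the doses was -1.83 for the contigs and -2.01 for the read-named probes. On the slide, the 115 spots were spread from row 3 to row 515 of 532 and from column 2 to column 82 of 85. With the array cut midway along rows and columns, 31 lay upper left, 31 upper right, 35 lower left and 18 lower right, where the tested probes were split 25.2%, 24.7%, 24.6% and 25.5%. The lower right part thus held 15.7% of the set. Only 4 pairs of the 115 lay within 2 rows and 2 columns of each other.

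Some probes of the set had almost the same profile. In 35 of 6555 pairs, which involved 47 probes, the levels differed by less than 0.5 on every array. The closest pair differed by at most 0.21: the first probe had levels of 1.80, 1.71 and 1.26 in controls, then 4.01, 3.18 and 2.91, then 1.11, 0.42 and 0.71 for the doses in order, and its partner had 1.81, 1.79 and 1.35, then 3.94, 3.37 and 2.93, then 1.03, 0.63 and 0.69. The files do not say whether such a pair reads 1 transcript, so 115 probes need not be 115 genes. Within groups, the deviations of 2 probes of the set from their group means correlated with a median r of 0.28 over all pairs (quartiles -0.08 and 0.57), computed over the same 9 arrays, so the probes are not separate observations of a condition. In controls array 2 was the highest for 70 probes and array 3 the lowest for 66, where the shares over all tested probes were 34.7% and 36.6%.

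Set beside each dose alone, the pattern was rare. Every 5 mg array lay above all controls for 5694 probes (22.0% of those tested), of which the 115 are 2.02%. Every 16 mg array lay below all controls for 7887 probes (30.5%), of which they are 1.46%. Both comparisons share the 3 control arrays.

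**Figure D3:**
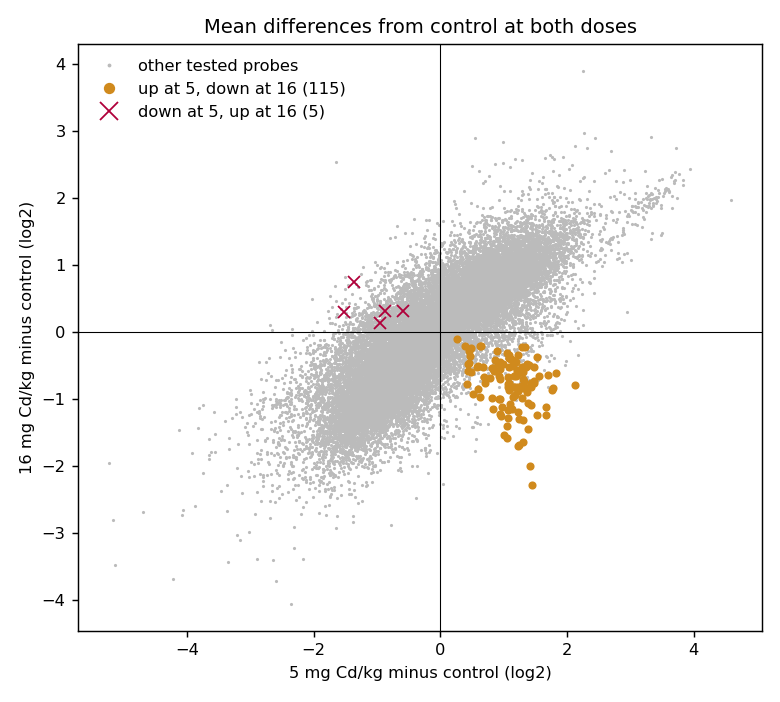
Mean level difference from control at 5 mg Cd/kg (horizontal axis) and 16 mg Cd/kg (vertical axis), both log2, for all tested probes in grey, the 115 probes in orange and the 5 of the opposite pattern as crosses. Both axes share the 3 control arrays; the 115 lie at 0.26 to 2.13 across and -2.29 to -0.11 down.

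The 5 probes of the opposite pattern were fewer and less clear. GYUW2K402JICG3 read -1.50, -1.52 and -1.60 in controls, -4.59, -2.22 and -1.87 for the lower dose and -1.11, -1.06 and -0.19 for the higher. GYUW2K401A9DI8 had -1.09, -0.63 and -0.66 in controls, -4.57, -1.21 and -1.16 at 5 mg and -0.60, -0.56 and -0.35 at 16 mg. In both, 5 mg array 1 lay far below the other 5 mg arrays and the probes were not above background there. The SDs at 5 mg were 1.48 and 1.95, larger than the differences from control of -1.36 and -1.51. The other 3 probes differed from control by -0.59 to -0.95 at 5 mg and by 0.13 to 0.32 at 16 mg, and 2 of them were above background on no 5 mg array. None of the 5 was above background on all 9 arrays. GYUW2K401A9DI8 was 0.30 above control at 16 mg, but -0.15 with the 75th percentile taken over probes above background on all 9 arrays. Without 1 array the opposite pattern was met by more probes, namely 57 when 5 mg array 2 was left out, 73 for 5 mg array 3, 39 for 16 mg array 1 and 9 to 19 for each other array.

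The rule is sharp, and many probes sat close to its edge. The smaller of a probe's 2 gaps, from the nearest 5 mg array down to the highest control and from the lowest control down to the nearest 16 mg array, had a median of 0.21 and a highest value of 0.84, reached by GYUW2K402I59SC. It was at least 0.1 for 83 probes, at least 0.2 for 62 and at least 0.5 for 16. The probe just inside had gaps of 0.0012 and 0.075, with levels of 0.96, 0.68 and 0.72 in controls, 1.51, 0.96 and 1.22 at 5 mg and 0.21, 0.61 and 0.10 at 16 mg. The probe just outside had gaps of 0.15 and -0.0025, with 1 array of 16 mg at -0.02 beside a lowest control of -0.03. Just outside the rule, 31 probes missed it by less than 0.1, about as many as the 32 inside whose smaller gap was under 0.1. The scanner software's own errors of the 2 spots at a gap, combined, came to a median of 0.21 on the log2 scale at either gap. Both gaps exceeded the probe's own combined error for 55 of the 115 probes, and exceeded 2 times that error for 24.

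The limma fit of all 25915 tested probes and 9 arrays, two-sided with Benjamini-Hochberg adjustment at a threshold of 0.05, used the same contrasts as the rule, so its calls are given for the record only. At 5 mg Cd/kg it called 56 of the 115 higher than control, where 8.94% of all tested probes were called higher and 5.55% lower. The limma fit of the control and 5 mg arrays alone called 8 of the 115 and 807 of all 25915 higher. At 16 mg Cd/kg limma called 0 of the 115 lower and 0 of all tested probes, with 54 of the 115 and 7274 of all at an unadjusted p under 0.05. The limma fit of the control and 16 mg arrays alone called 65 of the 115 and 5804 of all 25915 lower, along with 5231 of all higher. Between the doses 26 of the 115 were called lower at 16 mg than at 5 mg, where 0.104% of all tested probes were, and the fit of the 5 mg and 16 mg arrays alone called 0, with 755 of all probes at an unadjusted p under 0.05. The count at 5 mg was 0 (0 of all) without control array 1, 2 or 3 or 5 mg array 3. It was 21 (1082 of all) without 16 mg array 1. The count at 16 mg was 29 without 5 mg array 1, when 2525 of all probes were called lower and 2132 higher. With the scan session as a block, control array 3 was the only control left to compare, so its calls cannot weigh the part of the session and are not given. The median over the 115 was then 1.20 for 5 mg minus control and -0.51 for 16 mg minus control. For 16 mg minus 5 mg it was -1.77. The count between the doses was 0 or 1, among the 115 and among all probes, without any control or 16 mg array. It was 17 (19 of all) without 5 mg array 3.

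The rule was also applied with 1 array left out, and the left-out array was then read against the same 3 controls that chose the probes. A chosen probe that also passes on the left-out array meets the full rule. The number that passed was therefore 115 each time, or 116 where the filter without that array differed. Each share thus restates how many probes met the rule without that array, and is no independent reading of the pattern. Without 5 mg array 1, 128 probes met the rule, and the left-out array lay above all controls for 116 of them (90.6%). Without 5 mg array 2 this was 115 of 157 (73.2%), and without 5 mg array 3 it was 115 of 195 (59.0%). Over all tested probes those arrays lay above all controls for 45.4%, 39.8% and 40.7%. A closer yardstick is the probes whose other 2 arrays at 5 mg lay above all controls while 16 mg did not lie below them: there the left-out array lay above all controls for 75.1%, 70.4% and 90.0%. The chosen probes thus lay above the controls in a larger share than the yardstick on array 1 and in a smaller share on array 3, with no test of these differences. On array 3, 71 of the 195 lay below all controls.

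For the 16 mg arrays, the left-out array lay below all controls for 115 of 184 (62.5%), 115 of 147 (78.2%) and 115 of 133 (86.5%) probes chosen without array 1, 2 and 3. Over all tested probes the shares were 41.4%, 45.6% and 43.7%. For probes whose other 2 arrays at 16 mg lay below the controls while 5 mg did not lie above them, they were 81.2%, 94.2% and 85.3%. A left-out control array fell between the doses for 115 of 139 (82.7%), 115 of 129 (89.1%) and 116 of 152 (76.3%) of the chosen probes, for control arrays 1 to 3. In all these readings the choosing and the reading share arrays of the other groups. Leaving out 5 mg array 3 or 16 mg array 1 took the number of probes that met the rule from 115 to 195 or 184, the largest moves of any single array. A smaller number of arrays makes the rule easier to meet.

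Slides 1 and 2 share no array and each held all 3 groups: slide 1 held 2 control arrays with 1 array of each dose, and slide 2 held 1 control array, 1 array at 5 mg and 2 at 16 mg. On slide 1 alone 1646 probes had the pattern, and 181 of them (11.0%) had it again on slide 2, beside 3.09% of all tested probes there. Of the same 1646, 180 (10.9%) showed the opposite pattern on slide 2, beside 4.23% of all tested. There 5 mg lay above the control for 33.72% of the 1646, fewer than the 45.31% of all tested. Both 16 mg arrays lay below it for 51.64%, beside 44.73%. On slide 2 alone 1022 probes had the pattern, and 194 of them (19.0%) had it again on slide 1, beside 6.03% of all tested, while 46 (4.50%) showed the opposite, beside 7.97%. On slide 1, 5 mg lay above the controls for 58.51% of the 1022, beside 41.02% of all tested. For 16 mg below the controls it was 43.05%, beside 42.47%. Probes chosen on slide 2 for the opposite pattern, 1303 in number, also showed the 5 mg above and 16 mg below pattern on slide 1 in 194 cases (14.9%), and their own pattern in 76 (5.83%). A share above that of all tested probes on slide 1 was therefore not particular to probes chosen for the pattern. Of 2145 probes chosen on slide 1 for the opposite pattern, 61 (2.84%) showed it again on slide 2 and 33 (1.54%) showed the reverse. In the read slide the median 16 mg minus 5 mg difference of the chosen probes was 0.31 for those chosen on slide 1 and -0.35 for those chosen on slide 2, beside 0.14 and 0.02 over all tested probes. Brightness moved with this: on slide 1 the 75th percentile was 50.5 and 48.9 on the cadmium arrays, against 74.5 and 78.1 on the controls, while on slide 2 it was 79.6 to 87.3 against 74.4, and its part in the result was not tested. For the 115 probes, which were chosen with these arrays, the medians of 5 mg minus control and 16 mg minus control were 1.12 and -0.56 within slide 1 and 0.71 and -0.86 within slide 2.

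**Figure D4:**
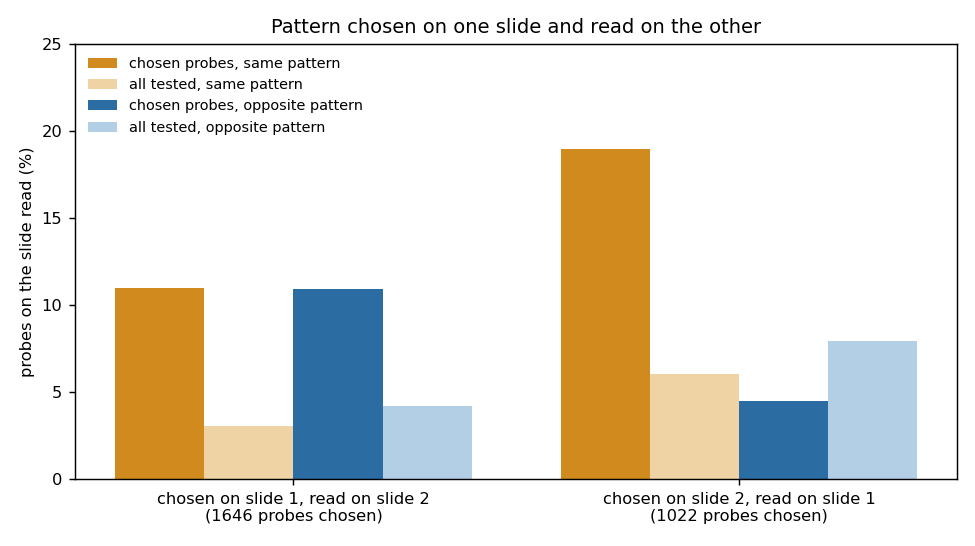
Share of probes with the pattern (5 mg above and 16 mg below the controls, orange) or its opposite (blue) on the slide read, in percent, for probes chosen by the pattern on the other slide (dark bars) and for all tested probes (pale bars). Chosen on slide 1, 11.0% had the same and 10.9% the opposite pattern on slide 2; chosen on slide 2, 19.0% had the same and 4.50% the opposite on slide 1.

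Where the controls fall between the doses depends on how the arrays are scaled. The order of the doses was the same in all scalings, which is no check of that order. The choice of the probes fixes it under the reported scaling, with 16 mg minus 5 mg at -0.37 or lower for every probe. The other scalings of the processed signal move all probes of an array by the same amount, too little to change any sign. The arrays were scaled in 7 ways. In each of them the mean at 5 mg Cd/kg lay above the mean at 16 mg Cd/kg for all 115 probes, with a median 16 mg minus 5 mg of -1.93 to -1.55 for the 5 scalings of the processed signal and of -0.59 and -0.92 with 2 forms of normexp background correction. Scaled on the spike-in RNAs, 39 of the 115 kept the full pattern: all 5 mg arrays lay above the controls for 58 and all 16 mg arrays below for 74. Scaled on the median of the array, 56 kept it, with 114 above at 5 mg and 56 below at 16 mg. With no scaling between arrays it was 48, with 59 above at 5 mg and 92 below at 16 mg. Taken over the probes above background on all 9 arrays, the 75th percentile shifted both doses down relative to control: 115 stayed below at 16 mg and 59 above at 5 mg. The median of all tested probes moved from -0.25 to between -0.71 and 0.08 at 5 mg and from -0.07 to between -0.51 and 0.23 at 16 mg under these scalings. With normexp correction 79 of the 115 kept the full pattern after quantile scaling and 39 after scaling on the 75th percentile. In the latter the mean at 5 mg lay above control for 96 of the 115 and the mean at 16 mg below it for 103. Directions against control are relative to the shifts of all tested probes.

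**Figure D5:**
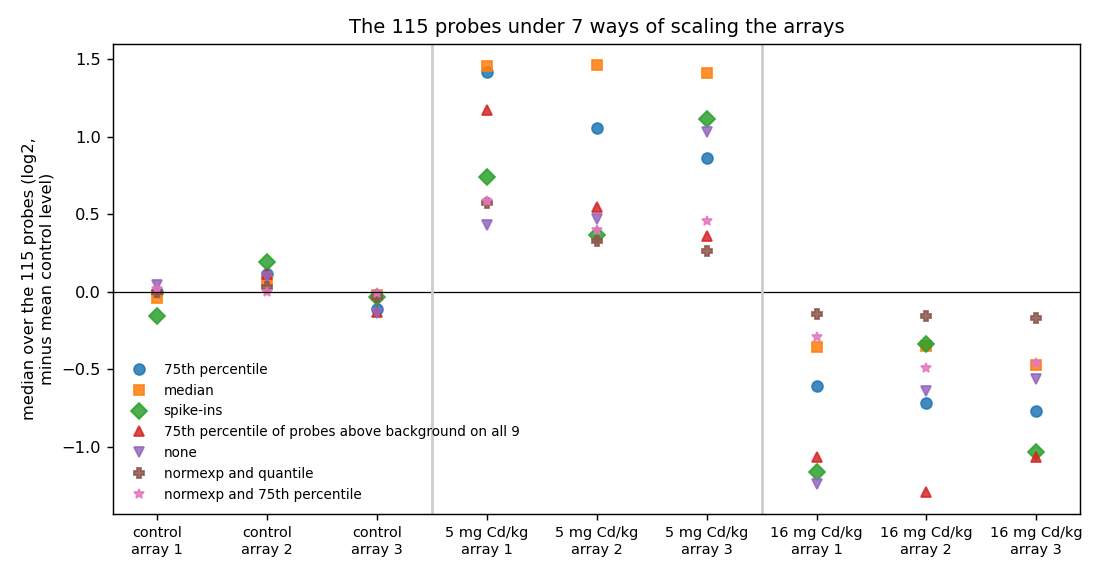
Median over the 115 probes on each array, minus the mean control level (log2), under 7 scalings shown by symbol. The 5 mg medians lie above 0 and the 16 mg medians below 0 in every scaling, between 0.27 and 1.46 at 5 mg and between -1.29 and -0.15 at 16 mg Cd/kg.

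The full pattern held for 21 of the 115 probes under all 5 scalings of the processed signal and for 12 under all 7. These 12, a description of the set since they were picked by their values, had a median of 1.40 above control at 5 mg Cd/kg and of -1.26 at 16 mg Cd/kg, and 10 of them were above background on all 9 arrays. They included GYUW2K401DQYVJ, GYUW2K401EVF7M and GYUW2K402I59SC, but not GYUW2K402FRGVE. The brightest among the 12 had levels of 3.19, 3.33 and 2.90 in controls, then 4.33, 4.89 and 3.88 at the lower dose and 1.54, 1.26 and 1.51 at the higher.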

How the data were processed

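RNA from 9 pools of cocoons was measured on 1-colour Agilent arrays, 3 per group. The deposited intensity values are, per the file headers, the processed signals that Feature Extraction (Agilent, version 10.7.3.1) computed within each array, background-subtracted and spatially detrended, with no scaling between arrays. The deposited flags of other kinds, per the file headers, mark spots as well above background, non-uniform, outlying or saturated. The authors' series table held the same intensity values, rounded (largest deviation 0.497%). Its column medians ran from 7.23 to 15.6.

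From each log2 signal the array's 75th percentile was subtracted. A probe was tested if, in 1 group or more, all 3 arrays measured it well above background (25915), and the pattern was read on the 25869 with no marked spot. limma 3.58.1 in R 4.3.3 (lmFit, eBayes) fitted all arrays in 3 groups, and was tested on simulated data. The members, the named-probe rule and the tests were chosen with earlier results of these data known. Named were the 2 probes farthest above control at 5 mg, the 2 farthest below it at 16 mg, and the 2 of the opposite pattern with the largest dose difference; the 12 probes that held in all scalings were chosen after their values were seen. Alternatives covered scaling, background correction, filters, blocks for replicate, slide and session, array weights and each array left out. Normexp used the median spot signal, since the files hold no mean spot signal. With no gene names, no gene list was tested.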

Additional observations from a re-analysis of the deposited data

Results flagged for a closer look

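The doses moved apart from the controls in opposite directions for 115 probes, higher at 5 mg Cd/kg and lower at 16 mg Cd/kg on every array, and for 5 probes the other way round. Both counts follow from the rule that chose the probes, and the difference between the doses was not tested beyond the fit across all probes. No group had enough arrays for a check of single outlying arrays.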

How the results depend on the processing

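The number of probes with the pattern, 115 as reported, was 52 with spike-in scaling, 70 with median scaling, 55 with normexp and the 75th percentile, 62 with no scaling between arrays and 16 with a gap of at least 0.5, and it ran from 128 to 195 without single arrays. It stayed within 1.5 times of 115 with the remaining scalings, filters, marked spots kept and the authors' table. The opposite pattern, 5 as reported, was met by 0 probes with spike-in scaling, normexp and the 75th percentile, or no scaling. A gap of at least 0.5 or only probes detected on all 9 arrays also gave 0. The count was 9 with no filter on dim probes and 9 to 73 without single arrays. With median scaling it was 2, of which 1 was among the reported 5. The 75th percentile over probes detected on all 9 arrays gave 5, and normexp and quantile gave 6. Of these, 0 were among the reported 5. Of the 115 probes, 56 (2317 of all 25915 probes) were called higher at 5 mg than control. The count was 4 (197 of all) with spike-in scaling, 103 (5623 of all) with median scaling and 5 (349 of all) with no scaling. It was 4 (672 of all) with the 75th percentile over probes detected on all 9 arrays. Normexp and the 75th percentile gave 37 (2444 of all), and no filter gave 0 (0 of all). With only the 2 groups compared it was 8 (807 of all), and with array weights 87 (6745 of all). Without single arrays it ran from 0 to 69, the latter without 5 mg array 2 (4931 of all). Calls lower at 16 mg than control, 0 as reported, numbered 5 (194 of all) with median scaling, 65 (5804 of all) with only the 2 groups compared, 69 (5739 of all) with array weights, and 0 to 29 (2525 of all) without single arrays. Calls lower at 16 mg than at 5 mg numbered 26 as reported (27 of all). They numbered 0 (0 of all) with spike-in scaling, normexp and the 75th percentile, no scaling or only the 2 groups compared. Median scaling gave 63 (90 of all), and the 75th percentile over probes detected on all 9 arrays gave 4 (4 of all). With normexp and quantile it was 6 (7 of all), and with no filter 2 (2 of all). Only probes detected on all 9 arrays gave 58 (94 of all 16952). The slide as a block gave 7 (7 of all) and array weights 49 (70 of all). Without single arrays it ran from 0 to 23, the latter without 5 mg array 1 (24 of all). Over the 3 arrays in turn, the left-out 5 mg array lay above all controls for 72.1% of chosen probes, against 65.6% with normexp and quantile and 66.5% with no filter. The left-out 16 mg array lay below for 74.4%, against 49.8% with spike-in scaling, 69.6% with normexp and quantile and 59.4% with no filter. Each such share restates how many probes met the rule without an array and is no independent reading. For the closer yardstick probes the shares under the reported scaling were 75.1%, 70.4% and 90.0% at 5 mg. At 16 mg they were 81.2%, 94.2% and 85.3%. The pattern chosen on one slide came back on the other for 14.1%, against 12.7% with normexp and quantile and 11.7% with no filter. Under the reported scaling all tested probes had it in 3.09% on slide 2 and 6.03% on slide 1. The opposite pattern appeared there for 10.9% and 4.50% of the chosen probes. The causes were not tested. Of 288 alternative values for the 6 named probes, 234 stayed within 1 SD between arrays, 52 moved further and 2 changed sign. Part of the 234 could not move. A difference stays the same when an array of the group outside it is left out. The authors' table holds the same signals, rounded. With normexp GYUW2K401EVF7M at 16 mg minus control was -0.24 or -0.73 in place of -2.29. The changes of sign were those of one probe: GYUW2K401A9DI8 at 16 mg minus control was -0.15 with the 75th percentile over probes detected on all 9 arrays and -0.0198 with normexp and the 75th percentile. Normexp on the median spot signal, no scaling and the reading of left-out controls were added after seeing the data; normexp on the mean spot signal was not run, since the files hold no such column.

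With the replicate number as a block, 26 of the 115 and 1176 of all 25915 probes were called higher at 5 mg than control. Calls lower at 16 mg than control, and lower at 16 mg than at 5 mg, numbered 0 of the 115 and 0 of all. Whether same-numbered arrays were handled as pairs cannot be settled with 3 arrays a group. Same-numbered arrays deviated together with r from -0.101 to 0.327, and in each pair of groups 1 of 3 arrays correlated best with its own number.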
